A study of Mus musculus with 2 samples.

Results

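The transcripts of 9 enzymes of serine and one-carbon metabolism were measured by droplet single-cell RNA sequencing in splenic regulatory T cells (Tregs) of young mice. The 9 genes were chosen by name and not by their values, although earlier results of these data were known. They are Phgdh, Psat1, Psph, Shmt1, Shmt2, Mthfd1, Mthfd2, Mthfd1l and Tyms, and make up 9 of the 32285 features of the count tables. Each gene matched 1 feature by its symbol. YFP-positive Tregs had been sorted from spleens of C57BL/6J mice at 7 days of age, with 1 library for WT and 1 for KO (Zfp335fl/fl Foxp3-Cre). In the KO mice a Cre recombinase driven by Foxp3 deletes the floxed Zfp335, so the deletion is restricted to cells that express Foxp3, and in the study's text WT stands for mice with the Foxp3 Cre allele alone. The number of mice behind each library was not given. With 1 library per genotype there are no replicates, no test between genotypes was possible, and the effect of the genotype cannot be told apart from that of the library.

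Cells make serine from the glycolytic intermediate 3-phosphoglycerate in a chain of reactions run by Phgdh, Psat1 and Psph. Serine hydroxymethyltransferases then move a carbon unit from serine to folate and leave glycine, Shmt2 in mitochondria and Shmt1 in the cytosol. Mthfd2 and Mthfd1l oxidise the unit to formate in mitochondria, Mthfd1 takes it up again in the cytosol for purine synthesis, and Tyms uses it to make thymidylate for DNA. Lymphocytes that start to divide are known to turn these reactions up.

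Transcripts were counted as unique molecular identifiers (UMIs). A barcode was used where it held 300 genes or more and no more than 5% mitochondrial UMIs, which left 8053 barcodes in WT and 13767 in KO. The kept WT barcodes were deeper, with a median of 5061 UMIs against 2713 in KO, and 29 barcode sequences occurred in both libraries. Levels are given as CPM, the UMIs of a gene divided by all UMIs of the class and scaled to a fixed total. The targeted gene Zfp335 stood at 8.16 CPM (396 UMIs) in WT and 0.783 CPM (41 UMIs) in KO T-lineage barcodes, which follows the labels. Clustering gave 15 clusters, of which 9 carried T cell receptor transcripts, together called T-lineage, with 7485 WT and 12935 KO barcodes. Foxp3, the factor that defines Tregs, stood at 40.5 CPM in WT and 44.4 CPM in KO, and the T cell gene Cd3e at 427 and 399 CPM. Erythroid transcripts differed between the libraries, since the 10 genes of an erythroid marker list summed to 573 CPM in WT and 3177 CPM in KO T-lineage barcodes, with none of the 10 at 0. The 9 genes of a neutrophil list summed to 331 CPM in WT and 830 CPM in KO. In WT and KO the erythroid list summed to 525 and 2247 CPM in non-cycling and 631 and 4276 CPM in cycling T-lineage barcodes. By cluster it summed to 534 and 1019 CPM in cluster 1, 486 and 786 in cluster 4, 525 and 1804 in cluster 5 and 361 and 843 in cluster 6. The neutrophil list summed to 303 and 1100 CPM in cycling barcodes. The part of these transcripts in the differences below was not tested.

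The clusters were read by marker lists. Cluster 1 was resting Treg-like, with all 8 resting markers raised although none led it (2311 WT and 4819 KO barcodes). Cluster 4 was activated Treg-like, with 7 of 10 activation markers raised, Nefh and Tnfrsf9 among its leading genes and 21 of 33 S-phase genes raised (391 and 1078 barcodes). Cluster 3 was effector Treg-like and held 1811 WT but 118 KO barcodes. Cluster 5 was led by histone genes and all its barcodes were cycling, with 597 WT and 804 KO barcodes. It also had 7 of 12 effector markers raised, against 10 of 12 in cluster 6. Cluster 6 combined effector markers with cycling genes, with 675 and 348 barcodes. Clusters 2, 7, 8 and 9 stayed unnamed, although resting markers were raised in cluster 8 (7 of 8) and in clusters 2 and 9 (3 of 8 each). Clusters 2 and 9 were shallow and mostly of KO barcodes, and cluster 7 was shallow and mostly of WT barcodes. The 9 enzyme genes had not been used to build the clusters, nor to call cycling barcodes.

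The stretches before a RefSeq start site of 4 of the genes are shown because Shmt2, Mthfd2 and Phgdh had the largest KO to WT ratios of the 9 genes and Tyms was the most tied to cycling. The sequences are RefSeq promoter stretches of build GRCm38.p6, read 5′ to 3′ on the strand of the gene and ending at the RefSeq start site, without bases that lie in an annotated exon. The stretches are chr10:127522445-127522644 for Shmt2, chr6:83317607-83317804 for Mthfd2, chr3:98339991-98340169 for Phgdh and chr5:30073626-30073825 for Tyms, all on the minus strand. The Mthfd2 stretch lies inside the annotated span of that gene, 83305691 to 83325908. It is upstream of the RefSeq start site used here and not of the whole gene. Capitals mark matches to a motif.
Shmt2: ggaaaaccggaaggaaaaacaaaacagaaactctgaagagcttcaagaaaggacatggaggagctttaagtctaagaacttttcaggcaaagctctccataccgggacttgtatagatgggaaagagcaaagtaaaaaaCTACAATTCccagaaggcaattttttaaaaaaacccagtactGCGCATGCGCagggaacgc
Mthfd2: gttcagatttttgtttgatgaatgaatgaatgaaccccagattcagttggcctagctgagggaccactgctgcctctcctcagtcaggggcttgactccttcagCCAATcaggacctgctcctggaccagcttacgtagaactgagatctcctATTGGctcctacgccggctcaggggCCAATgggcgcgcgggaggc
Phgdh: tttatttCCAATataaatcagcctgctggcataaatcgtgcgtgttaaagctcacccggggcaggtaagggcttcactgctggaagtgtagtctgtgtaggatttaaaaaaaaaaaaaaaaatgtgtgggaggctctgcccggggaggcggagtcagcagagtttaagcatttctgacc
Tyms: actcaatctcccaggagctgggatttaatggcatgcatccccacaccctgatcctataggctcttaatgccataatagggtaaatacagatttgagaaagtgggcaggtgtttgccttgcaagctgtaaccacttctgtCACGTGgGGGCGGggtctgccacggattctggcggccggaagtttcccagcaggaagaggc
Both strands of the 250 bases before the start site were searched for 7 motifs, with N standing for any base. These were CCAAT (the CCAAT box), GGGCGG (the GC box), CACGTG (the E-box), TTNCATCA (the Atf4 element), TTNGCGC (the E2f element), GCATGCGC (the Nrf1 element) and CTACAATTC (the Znf143 element). Of 32851 mouse promoters, 33.8% held a CCAAT box, 32.7% a GC box, 6.02% an E-box, 5.19% an E2f element, 3.45% an Atf4 element, 2.26% an Nrf1 element and 0.320% a Znf143 element. The Shmt2 window held the Znf143 element at -61 to -53 and the Nrf1 element on both strands, overlapping, from -19 to -10. The Mthfd2 window held 3 CCAAT boxes, and the Phgdh window held 2, of which that at -23 lies partly in an annotated first exon and is not shown. The Tyms window held an E-box at -61 to -56 and a GC box at -54 to -49. The letters of the Atf4 element were found in none of the windows of the 9 genes. Such matches are descriptions of the letters and do not show binding.

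The first question was whether the enzyme transcripts differed between WT and KO Tregs. Over all T-lineage barcodes 7 of the 9 genes had a KO to WT ratio above 1, beside 5100 of 12210 genes with at least 50 UMIs. Tyms and Mthfd1l had ratios below 1. The counting intervals of all 9 left out 1, but the share of all genes for which this holds was not counted. Shmt2 differed most. Intervals given in brackets are 95% intervals that cover counting error only, and not the spread between animals or libraries. Of 12210 genes with at least 50 UMIs over both libraries, 6.18% were at least 1.5-fold higher in KO and 12.3% at least 1.5-fold lower, whereas 1 of the 9 enzyme genes was past 1.5-fold higher and 0 were past 1.5-fold lower. The median log2 KO to WT ratio was 0.23 over the 9 genes and -0.07 over all genes tested.

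Of the serine synthesis enzymes, Phgdh (chromosome 3, 98313170 to 98339990, GRCm38), which commits 3-phosphoglycerate to serine, stood at 202 CPM (9787 UMIs) in WT and 273 CPM (14281 UMIs) in KO. Its KO to WT ratio was 1.35 (1.32 to 1.39). Psat1 (chromosome 19, 15904678 to 15947337), the transaminase of the next step, stood at 58.0 CPM in WT and 63.0 CPM in KO, a ratio of 1.09 (1.03 to 1.14). Psph (chromosome 5, 129765558 to 129787449), the phosphatase that releases serine, stood at 62.0 and 70.3 CPM, a ratio of 1.13 (1.08 to 1.19). Over all T-lineage barcodes the entry enzyme thus differed by more than the later enzymes of the chain, whose ratios were close to 1. The gap was smaller when the CPM of clusters 1, 4, 5 and 6 were weighted equally. The ratios were then 1.39 for Phgdh, 1.20 for Psat1 and 1.25 for Psph. In cluster 4 alone they were 1.59, 1.32 and 1.43.

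Of the serine hydroxymethyltransferases, Shmt2 (chromosome 10, 127517123 to 127522444), the mitochondrial form, stood at 38.2 CPM (1856 UMIs) in WT and 72.9 CPM (3820 UMIs) in KO. Its ratio of 1.91 (1.80 to 2.02) was the only one of the 9 past 1.5-fold. Shmt1 (chromosome 11, 60788104 to 60811718), the cytosolic form, stood at 14.9 CPM (723 UMIs) in WT and 18.9 CPM (990 UMIs) in KO, a ratio of 1.27 (1.15 to 1.40). The ratio of Shmt1 changed with the weight given to each cluster. When the CPM of clusters 1, 4, 5 and 6 were weighted equally, it was 1.00, whereas that of Shmt2 was 1.92.

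Among the folate enzymes, Mthfd2 (chromosome 6, 83305691 to 83325908), a mitochondrial dehydrogenase and cyclohydrolase, stood at 78.5 CPM (3810 UMIs) in WT and 114 CPM (5956 UMIs) in KO, a ratio of 1.45 (1.39 to 1.51). Mthfd1l (chromosome 10, 3973118 to 4167081), which releases formate in mitochondria, stood at 26.6 CPM in WT and 24.1 CPM in KO, a ratio of 0.907 (0.839 to 0.981). Its direction turned when each barcode was thinned to 1000 UMIs, to 1.04. Mthfd1 (chromosome 12, 76255298 to 76319803), the cytosolic enzyme, stood at 20.02 and 23.5 CPM, a ratio of 1.18 (1.08 to 1.28). Like Shmt1, Mthfd1 lost its difference under equal weighting of clusters 1, 4, 5 and 6, with a ratio of 0.988. The higher KO levels of the mitochondrial enzymes Shmt2 and Mthfd2 were therefore not shared by Mthfd1l, which acts after Mthfd2 in the same compartment.

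Tyms (chromosome 5, 30058202 to 30073617), the thymidylate synthase, stood at 118 CPM (5719 UMIs) in WT and 103 CPM (5414 UMIs) in KO, a ratio of 0.878 (0.845 to 0.911). This direction depended on how barcodes were weighted, with 1.11 for the mean of single-barcode CPM and 1.17 after thinning each barcode to 1000 UMIs. The annotation also lists a processed pseudogene each for Tyms and for Phgdh, so reads of these genes may be split by the authors' counting. Shmt2 overlaps Ndufa4l2, Shmt1 overlaps Smcr8 and Psph overlaps Cct6a on the opposite strand.

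To compare the share of expressing barcodes at equal depth, each T-lineage barcode was thinned to 1000 UMIs, which left out 1066 WT and 1073 KO barcodes. A Phgdh UMI was then found in 12.7% (11.9 to 13.6) of 6419 WT and 19.2% (18.5 to 19.97) of 11862 KO barcodes. Before thinning the shares were 44.0% and 42.4%, at median depths of 5022 and 2709 UMIs. Shmt2 was found in 2.88% (2.49 to 3.32) of thinned WT and 5.27% (4.87 to 5.69) of thinned KO barcodes, against 16.9% and 17.6% before thinning. For Mthfd2 the thinned shares were 6.65% (6.05 to 7.29) and 8.94% (8.43 to 9.46). In the late erythroid-like cluster 11, Phgdh was found in 4.88% (1.34 to 12.02) of 82 WT and 9.64% (5.91 to 14.7) of 197 KO thinned barcodes, at median depths of 4361 and 2532 UMIs, and Shmt2 in 7.32% (2.73 to 15.2) and 2.03% (0.556 to 5.12). Haemoglobin took 65.6% of the UMIs of this cluster in WT and 64.0% in KO, so its remaining depth was far below that of T-lineage barcodes and the shares do not set a matched background. In the neutrophil-like cluster 13, chosen after its values were seen, haemoglobin took 0.0316% of UMIs in WT and 0.0676% in KO, but granule genes took 30.7% in WT and 26.5% in KO. There Phgdh was found in 4.40% (1.21 to 10.9) of 91 WT and 6.02% (1.98 to 13.5) of 83 KO thinned barcodes, at median depths of 9193 and 5334 UMIs. Shmt2 was found in 2.20% (0.267 to 7.71) and 1.20% (0.0305 to 6.53), intervals that hold the T-lineage shares of both libraries. With so few barcodes in cluster 13, the share of barcodes with a Shmt2 UMI could thus not be set apart from it in either library. Summed without thinning, Shmt2 stood at 8.74 CPM (3.77 to 17.2) in WT and 21.4 CPM (11.4 to 36.6) in KO of cluster 13. In T-lineage barcodes it stood at 38.2 CPM (36.5 to 40.0) and 72.9 CPM (70.7 to 75.3).

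The next question was which T cell states carried the transcripts. In both libraries the serine synthesis genes and Shmt2 were lowest in the resting cluster 1 or the effector cluster 3 among the named T-lineage clusters and highest in clusters 4, 5 and 6. Psph was lower still in the unnamed cluster 8, at 36.2 CPM in WT and 43.2 CPM in KO, against 44.0 and 52.4 CPM in cluster 1. Phgdh stood at 85.4 CPM in cluster 1, 125 CPM in cluster 3, 276 CPM in cluster 4, 336 CPM in cluster 5 and 286 CPM in cluster 6 of WT. In KO the same clusters stood at 116, 134, 438, 444 and 367 CPM. Clusters 4 and 5 of KO did not differ beyond their counting intervals for Phgdh. The activated cluster 4 held more of all 9 transcripts than the resting cluster 1 in both libraries.

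**Figure D1:**
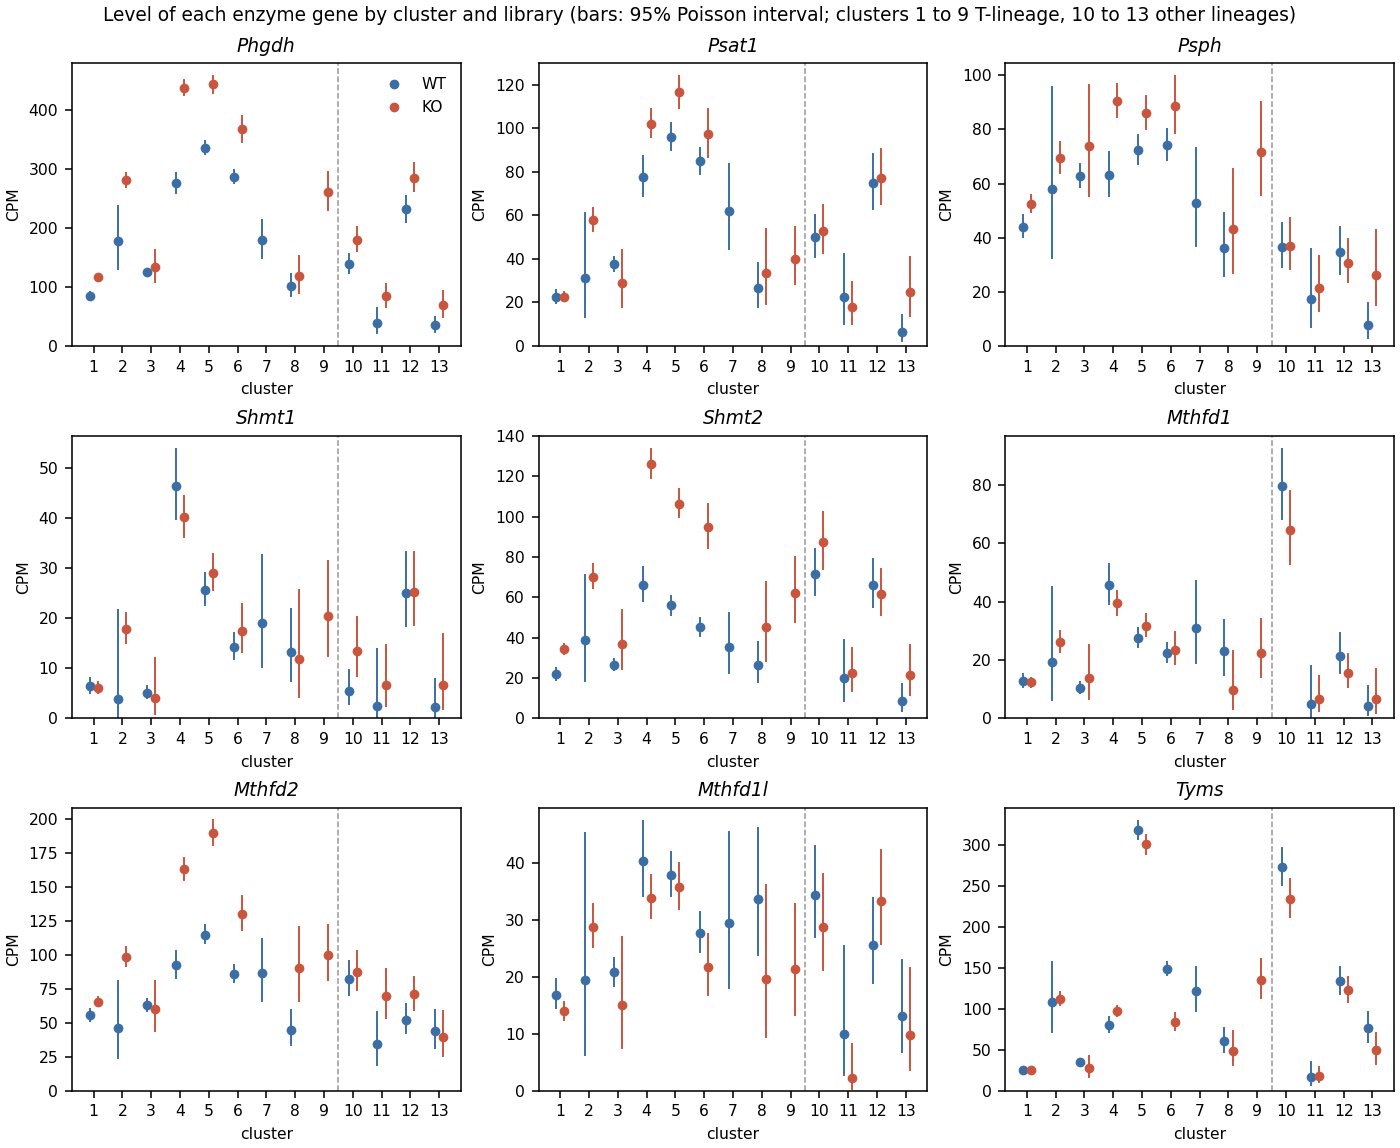
Level of each of the 9 enzyme genes in CPM (y axis, linear, from 0) by cluster number (x axis) in WT (blue) and KO (red); points are summed UMIs per cluster and library, bars are 95% Poisson intervals, and the dashed line separates T-lineage clusters 1 to 9 from other lineages. Phgdh is highest in clusters 4 to 6, Shmt1 peaks in cluster 4 and Tyms in cluster 5; clusters with under 50 barcodes in a library have no point.

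Within WT, 8 of the 9 genes were at least 1.5-fold higher in cluster 4 than in cluster 1, where 18.5% of all genes tested were, and within KO 9 of 9 were, where 16.4% of all genes tested were. Shmt1 had the largest ratio, with 46.4 CPM (174 UMIs) in cluster 4 and 6.41 CPM (68 UMIs) in cluster 1 of WT, or 7.24-fold (5.44 to 9.72). In KO it was 6.67-fold (5.43 to 8.22). Mthfd1 was 3.53-fold (2.80 to 4.45) higher in cluster 4 in WT and 3.19-fold (2.71 to 3.75) in KO. Psat1 was 3.44-fold (2.89 to 4.10) and 4.55-fold (4.07 to 5.09) higher. Mthfd2 was 1.66-fold (1.45 to 1.90) higher in WT and 2.49-fold (2.31 to 2.68) in KO. Psph varied least, with 1.44-fold (1.22 to 1.68) in WT and 1.73-fold (1.58 to 1.89) in KO. Cluster 4 was deeper, at medians of 8683 and 7496 UMIs against 4247 and 3809 in cluster 1.

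The effector cluster 3 was measured mainly in WT. There Phgdh was 1.46-fold (1.35 to 1.59), Psat1 1.66-fold (1.42 to 1.94) and Psph 1.43-fold (1.27 to 1.60) above cluster 1. The cytosolic enzymes Shmt1 and Mthfd1 were not higher there, at 0.803-fold (0.565 to 1.14) and 0.809-fold (0.634 to 1.03). In the 118 KO barcodes of cluster 3 the 9 genes had 3 to 98 UMIs each, and the KO to WT ratios had intervals that included 1 for all 9.

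The KO to WT ratio was then taken within each cluster that both libraries filled. In cluster 1, 2.70% of 10389 genes were at least 1.5-fold higher in KO and 10.0% at least 1.5-fold lower, and of the 9 enzyme genes 1 was higher and 0 lower. That gene was Shmt2, at 21.9 CPM (232 UMIs) in WT and 34.4 CPM (712 UMIs) in KO, a ratio of 1.57 (1.35 to 1.83). Phgdh had a ratio of 1.36 (1.26 to 1.47), Psph 1.19 (1.07 to 1.33) and Mthfd2 1.18 (1.07 to 1.30). Psat1, Shmt1, Mthfd1 and Tyms had ratios from 0.942 to 0.997, with intervals that included 1. Mthfd1l stood at 16.9 CPM in WT and 13.9 CPM in KO, a ratio of 0.824 (0.682 to 0.999). Over the 9 genes the log2 ratios of cluster 1 had a median of -0.01, against -0.08 over all genes tested there.

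In the activated cluster 4, 5.21% of 8989 genes were at least 1.5-fold higher and 10.4% at least 1.5-fold lower in KO, against 3 and 0 of the 9 enzyme genes. The median log2 ratio was 0.39 over the 9 genes and -0.08 over all genes tested. Shmt2 stood at 66.1 CPM (248 UMIs) in WT and 126 CPM (1206 UMIs) in KO, a ratio of 1.91 (1.67 to 2.20). Mthfd2 stood at 92.5 CPM (347 UMIs) and 163 CPM (1556 UMIs), a ratio of 1.76 (1.57 to 1.99). Phgdh stood at 276 CPM (1036 UMIs) and 438 CPM (4179 UMIs), a ratio of 1.59 (1.48 to 1.70). Psat1 and Psph had ratios of 1.32 (1.15 to 1.51) and 1.43 (1.24 to 1.66). The cytosolic enzymes Shmt1 and Mthfd1 went the other way, at 0.868 (0.724 to 1.04) and 0.864 (0.720 to 1.04), and their intervals included 1. Among the non-cycling barcodes of cluster 4 both were lower in KO by counting error, with 54.1 CPM in WT and 39.2 CPM in KO for Shmt1, or 0.726 (0.577 to 0.916), and 54.1 and 35.4 CPM for Mthfd1, or 0.655 (0.517 to 0.830). Among the cycling barcodes of cluster 4 the ratios were 1.21 (0.883 to 1.70) and 1.37 (0.989 to 1.93). In the non-cycling barcodes of cluster 4 the mitochondrial enzymes Shmt2 and Mthfd2 stood at 1.71 (1.45 to 2.04) and 1.85 (1.58 to 2.16).

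**Figure D2:**
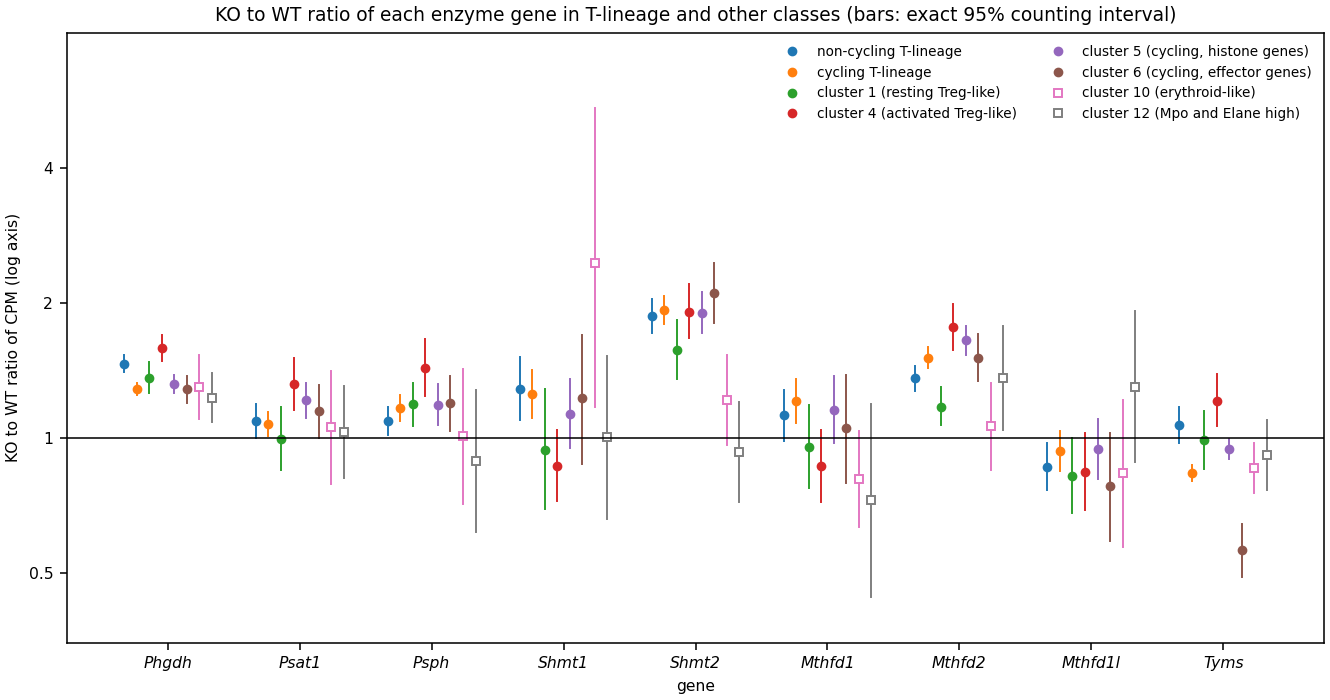
KO to WT ratio of CPM (y axis, log scale) for each of the 9 enzyme genes (x axis) in 6 T-lineage classes (filled circles) and in the erythroid-like cluster 10 and the Mpo and Elane cluster 12 (open squares); bars are exact 95% counting intervals and the line marks a ratio of 1. Shmt2 lies above 1.5 in all 6 T-lineage classes and at 1.22 and 0.933 in clusters 10 and 12, while Tyms is spread from 0.563 in cluster 6 to 1.21 in cluster 4.

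The Mthfd2 ratio differed between the resting and the activated or cycling states. Its KO to WT ratio in cluster 4 was 1.4998 times (1.29 to 1.74) that in cluster 1, and in cluster 5 it was 1.40 times (1.24 to 1.59) that in cluster 1. For Shmt2 the same comparisons gave 1.22 (0.994 to 1.49) and 1.21 (1.01 to 1.45). For Phgdh they gave 1.16 (1.05 to 1.29) and 0.968 (0.886 to 1.06), so that the Phgdh ratio in cluster 5 was not distinguishable from that in cluster 1. These are counting intervals within the same pair of libraries.

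In the histone-led cycling cluster 5, 8.45% of 9534 genes were at least 1.5-fold higher and 8.52% at least 1.5-fold lower in KO, against 2 and 0 of the enzyme genes. Shmt2 stood at 56.0 CPM in WT and 106 CPM in KO, or 1.90-fold (1.71 to 2.12), and Mthfd2 at 115 and 189.7 CPM, or 1.65-fold (1.53 to 1.78). Tyms stood at 318 CPM (3183 UMIs) in WT and 301 CPM (2615 UMIs) in KO, or 0.946-fold (0.898 to 0.997). In cluster 6, 9.16% of 8901 genes were at least 1.5-fold higher and 12.4% at least 1.5-fold lower, against 2 and 1 of the enzyme genes. The higher genes were again Shmt2, at 2.10-fold (1.80 to 2.45), and Mthfd2, at 1.51-fold (1.34 to 1.71). The lower gene was Tyms, at 149 CPM (1322 UMIs) in WT and 83.8 CPM (263 UMIs) in KO, or 0.563-fold (0.491 to 0.643). This direction was lost at Leiden resolution 0.3, where the cluster nearest to cluster 6 shared 19.5% of the joint barcodes and Tyms had a ratio of 1.07.

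Cycling was then set apart. A barcode was called cycling where at least 0.591% of its UMIs fell in 84 replication and mitosis genes that include none of the 9, a limit drawn across a continuous range, and 17.0% of WT and 23.3% of KO T-lineage barcodes lay within 1.25-fold of it. Cycling barcodes numbered 2657 in WT and 5934 in KO, with median depths of 5716 and 1856 UMIs. In WT, 11.4% of 11250 genes were at least 1.5-fold higher in cycling than in non-cycling T-lineage barcodes, and in KO 11.4% of 11156 were, against 8 of the 9 enzyme genes in each library. Psph was the exception, at 1.28-fold (1.19 to 1.38) in WT and 1.37-fold (1.28 to 1.46) in KO.

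Tyms was the most tied to cycling. It stood at 32.7 CPM in non-cycling and 221 CPM in cycling WT barcodes, or 6.76-fold (6.28 to 7.27), and at 34.9 and 184 CPM in KO, or 5.29-fold (4.93 to 5.67). Phgdh followed at 2.40-fold (2.30 to 2.50) in WT and 2.11-fold (2.04 to 2.18) in KO, and Psat1 at 2.35-fold (2.17 to 2.54) and 2.31-fold (2.15 to 2.48). Shmt1 was 2.06-fold (1.76 to 2.40) and 2.00-fold (1.75 to 2.28) higher in cycling barcodes. Shmt2, Mthfd1, Mthfd2 and Mthfd1l were 1.58-fold to 1.71-fold higher in WT and 1.73-fold to 1.77-fold higher in KO. These ratios pool clusters of unlike level. Within cluster 4 the 9 genes summed were at 1.01-fold (0.940 to 1.09) in WT and 1.17-fold (1.13 to 1.22) in KO. Within cluster 1 the sums were at 1.07-fold (0.888 to 1.27) and 1.04-fold (0.925 to 1.17). In cluster 4 Phgdh was at 0.916-fold (0.805 to 1.04) and 1.09-fold (1.02 to 1.16). Tyms there was at 3.47-fold (2.71 to 4.47) and 3.43-fold (2.94 to 4.01). The part of the cluster mix in the pooled ratios was not tested.

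Across the range of cell cycle UMIs the genes did not follow the same course. In the lowest bin, under 0.295% of UMIs, Tyms stood at 26.6 CPM in WT and 27.4 CPM in KO, and in the fourth of 5 bins, from 1.18% to 2.36%, it stood at 273 and 269 CPM. In the highest bin it was still at 256 CPM (237 to 277) in WT, against 183 CPM (165 to 202) in KO. Shmt1 peaked earlier, in the third bin, at 26.0 CPM (22.6 to 29.8) in WT and 31.5 CPM (28.5 to 34.7) in KO, and stood at 5.79 CPM (3.17 to 9.71) and 12.6 CPM (8.29 to 18.3) in the highest bin. Mthfd1 stood at 27.1 CPM (24.2 to 30.3) in the fourth bin of WT and at 11.2 CPM (7.36 to 16.2) in the highest bin. The third bin was shallow, with medians of 1705 UMIs in WT and 1604 in KO. Shmt2 was higher in KO in each of the 5 bins, with 28.5 and 48.0 CPM in the lowest bin and 26.9 (20.7 to 34.3) and 41.5 CPM (33.3 to 51.0) in the highest, where the intervals met.

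**Figure D3:**
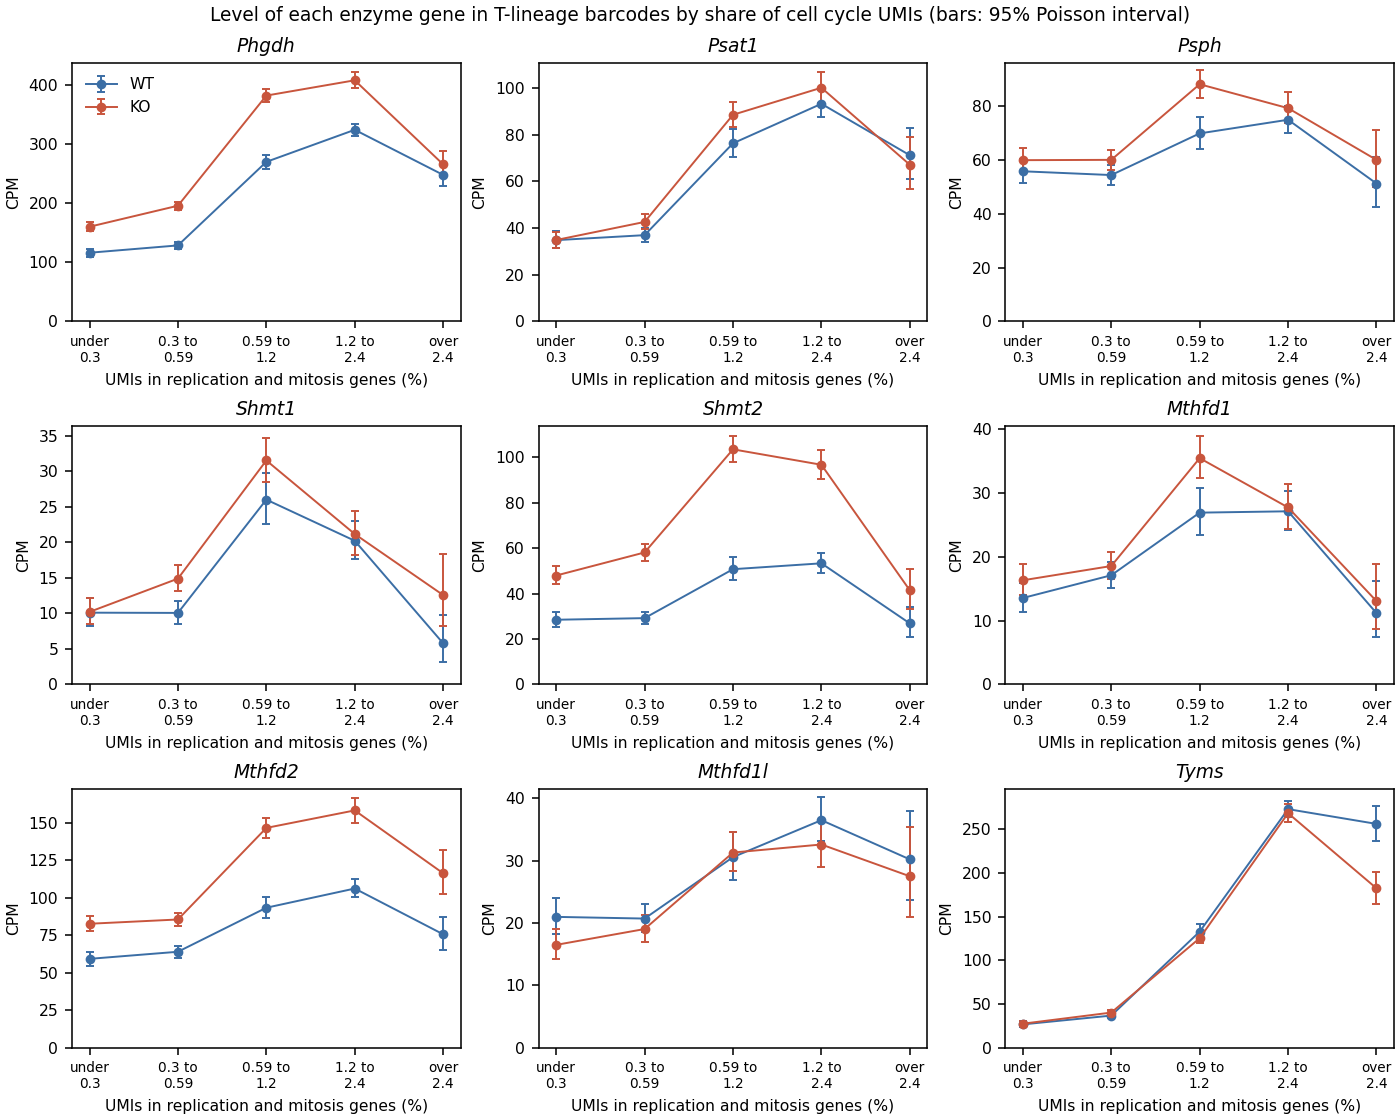
Level of each of the 9 enzyme genes in CPM (y axis, linear, from 0) in T-lineage barcodes grouped into 5 bins by the percent of their UMIs in replication and mitosis genes (x axis) in WT (blue) and KO (red), with 95% Poisson intervals as bars. Shmt1 peaks in the third bin and Tyms in the fourth, and the KO line of Shmt2 lies above the WT line in all 5 bins.

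Cycling barcodes were also split by the part of their cell cycle UMIs that fell in replication genes. Those at or above the median, 23.5%, were called S-leaning and the others G2/M-leaning. An S-leaning barcode could thus still hold more mitosis than replication UMIs. S-leaning barcodes held more of all 9 transcripts than G2/M-leaning barcodes in both libraries, but the share of all genes that did so was not counted. In WT the ratio of the former to the latter was 2.37 (1.93 to 2.94) for Shmt1, 1.95 (1.62 to 2.34) for Mthfd1, 1.72 (1.51 to 1.95) for Shmt2 and 1.29 (1.22 to 1.37) for Tyms. In KO it was 2.02 (1.70 to 2.40) for Shmt1, 1.73 (1.48 to 2.02) for Mthfd1, 1.24 (1.14 to 1.35) for Shmt2 and 1.44 (1.36 to 1.53) for Tyms. Shmt2 was thus less low in the G2/M-leaning barcodes of KO. Its KO to WT ratio was 1.70 (1.55 to 1.87) in S-leaning and 2.36 (2.10 to 2.66) in G2/M-leaning barcodes, and the latter was 1.39 times (1.19 to 1.61) the former. Mthfd2 had ratios of 1.37 (1.28 to 1.47) and 1.75 (1.61 to 1.91) in the same classes.

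Between genotypes, 4.51% of 11364 genes were at least 1.5-fold higher in KO and 12.9% at least 1.5-fold lower in non-cycling barcodes, against 1 and 0 of the enzyme genes. In cycling barcodes the shares were 8.56% and 10.4% of 11064 genes, against 2 and 0. Shmt2 had a ratio of 1.87 (1.71 to 2.04) in non-cycling and 1.93 (1.79 to 2.07) in cycling barcodes. Pooled over clusters, its difference was thus of like size on both sides of the limit. Within cluster 4 its ratio was 1.71 (1.45 to 2.04) in non-cycling and 2.40 (1.88 to 3.10) in cycling barcodes. Within cluster 1 it was 1.60 (1.38 to 1.88) in non-cycling barcodes. In the few cycling barcodes of cluster 1 it was 0.984 (0.473 to 2.16). Phgdh stood at 124 CPM in WT and 181 CPM in KO non-cycling barcodes, or 1.46-fold (1.40 to 1.53), and at 296 and 381 CPM in cycling barcodes, or 1.29-fold (1.25 to 1.33). Mthfd2 had ratios of 1.36 (1.28 to 1.45) and 1.51 (1.43 to 1.59). Tyms had 1.07 (0.973 to 1.17) in non-cycling and 0.835 (0.802 to 0.870) in cycling barcodes. Psat1 stood close to 1 in both, at 1.09 (1.00 to 1.19) and 1.07 (1.01 to 1.14), and in cycling barcodes it turned to 0.917 after thinning and to 1.00 for the mean of single-barcode CPM.

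Clusters 2, 7 and 9 held shallow barcodes, with haemoglobin at 1.09% of the UMIs of cluster 2 in KO and 2.81% of cluster 9 in KO. Called cycling were 72.2% of the 4671 KO barcodes of cluster 2 and 63.0% of the 762 of cluster 9. In WT 78.5% of the 937 barcodes of cluster 7 were, so these clusters weigh on the cycling class, more so in KO. Without these clusters the T-lineage ratios were 1.93 (1.82 to 2.04) for Shmt2, 1.49 (1.43 to 1.55) for Mthfd2, 1.34 (1.31 to 1.38) for Phgdh, 0.877 (0.806 to 0.953) for Mthfd1l and 0.857 (0.823 to 0.892) for Tyms. In cycling barcodes Shmt2 then had a ratio of 2.10 (1.95 to 2.27), and in non-cycling barcodes the ratio of Tyms went from above 1 to 0.886 (0.802 to 0.979).

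Cells of other lineages in the same libraries gave a further comparison, although the YFP gate should have removed them. In the erythroid-like cluster 10 (203 WT and 391 KO barcodes), Zfp335 stood at 6.40 CPM (14 UMIs) in WT and 1.17 CPM (2 UMIs) in KO, and in cluster 12, led by the myeloid genes Elane and Mpo (107 and 112 barcodes), at 8.37 CPM (16 UMIs) and 5.04 CPM (10 UMIs). The target gene was thus also low in KO in cluster 10, so that cluster cannot be taken as spared by the deletion. Phgdh was higher in KO in both, at 139 and 180.0 CPM in cluster 10, or 1.30-fold (1.11 to 1.53), and at 232 and 285 CPM in cluster 12, or 1.23-fold (1.08 to 1.40). Shmt2 had ratios of 1.22 (0.966 to 1.53) and 0.933 (0.722 to 1.20), with intervals that included 1. The Shmt2 ratio of cluster 5 was 1.56 times (1.22 to 2.00) that of cluster 10 and 2.04 times (1.56 to 2.67) that of cluster 12. For Phgdh the same comparisons gave 1.02 (0.861 to 1.20) and 1.07 (0.940 to 1.23), so the Phgdh difference of cluster 5 could not be told apart from that of these lineages. That of cluster 4 was 1.29 times (1.12 to 1.49) that of cluster 12. Phgdh was also higher in KO in the late erythroid-like cluster 11, at 39.5 and 84.3 CPM or 2.13-fold (1.23 to 3.92), and in the neutrophil-like cluster 13, at 34.97 and 69.1 CPM or 1.98-fold (1.22 to 3.23), each from 75 or fewer UMIs. Mthfd2 had ratios of 1.06 (0.849 to 1.33) in cluster 10 and 1.36 (1.04 to 1.77) in cluster 12. Its ratio in cluster 5 was 1.55 times (1.23 to 1.96) that in cluster 10 and 1.21 times (0.930 to 1.59) that in cluster 12. Its ratio in cluster 4 was 1.30 times (0.980 to 1.72) that in cluster 12. The Mthfd2 difference of clusters 4 and 5 could thus not be told apart from that of cluster 12. In clusters 11 and 13 Mthfd2 had 2.01 (1.11 to 3.90) and 0.903 (0.521 to 1.53). Shmt2 had 1.14 (0.480 to 2.98) and 2.45 (0.940 to 6.81) there, from 20 or fewer UMIs in each library. Psat1 had 0.808 (0.336 to 2.08) and 3.76 (1.38 to 11.8) in clusters 11 and 13, and Psph 1.23 (0.497 to 3.47) and 3.44 (1.34 to 9.89). In cluster 13 Zfp335 stood at 6.56 CPM (6 UMIs) in WT and 6.58 CPM (4 UMIs) in KO. The target gene was thus not seen to be lower in KO there, from very few UMIs, while Phgdh, Psat1 and Psph were higher.

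The wider pathway was described by gene lists in T-lineage barcodes, and these lists were chosen with earlier results of these data known. In the Atf4 pathway list, the amino acid stress response whose targets include serine synthesis genes, 9 of 14 genes with at least 50 UMIs were at least 1.5-fold higher in KO and 0 lower, against 6.18% and 12.3% of all genes, and the median log2 ratio was 0.83. Of these, Chac1 and Nupr1 passed that minimum through KO alone, and among the 12 genes with at least 50 UMIs in each library 7 were higher, 0 lower and the median was 0.72, beside 4.34% higher and 9.498% lower of all genes that passed the same minimum. Atf4 itself stood at 101 CPM (4898 UMIs) in WT and 158 CPM (8276 UMIs) in KO, or 1.57-fold (1.51 to 1.62). Asns, which makes asparagine, stood at 11.2 and 35.3 CPM, or 3.14-fold (2.85 to 3.46). Trib3, a pseudokinase induced by stress, had 84 UMIs in WT and 546 in KO, or 6.03-fold (4.78 to 7.68), and Chac1, which degrades glutathione, had 5 and 112 UMIs, or 20.8-fold (8.64 to 65.2). Cebpb was the lowest of the list, at 0.850-fold (0.782 to 0.925). With at least 50 UMIs in each library, the list's median was 0.09 in cluster 1 with 1 of 8 genes past 1.5-fold higher, and 0.67 in cluster 4 with 5 of 9, against 1.67% and 2.34% of all genes. In cluster 4, Trib3 had 1 UMI in WT and 163 in KO, a ratio of 64.1 (11.3 to 2547).

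Genes that feed serine and folate to the 9 enzymes had medians close to that of all genes. In the list of serine and glycine transport and use, 2 of 12 genes were at least 1.5-fold higher, 0 were lower and the median log2 ratio was -0.10. The highest was Slc1a4, a neutral amino acid transporter, with 28 UMIs in WT and 132 in KO, or 4.37-fold (2.89 to 6.83), which passed the minimum through KO alone. Slc1a5, a glutamine and neutral amino acid transporter, was at 0.898-fold (0.845 to 0.954), and Sfxn1, which carries serine into mitochondria, stood at 89.3 CPM in WT and 76.1 CPM in KO, or 0.852-fold (0.816 to 0.890). The lowest was Sptlc1, of sphingolipid synthesis, at 0.823-fold (0.747 to 0.907). In the folate list 2 of 11 genes were past 1.5-fold higher and 0 lower, with a median of -0.09, and of its 9 genes with at least 50 UMIs in each library 0 were past 1.5-fold. Aldh1l1 and Slc46a1 shared the highest ratio, 1.72 (0.970 to 3.12), from 20 UMIs in WT and 37 in KO each, and Mthfd2l was lowest at 0.711 (0.574 to 0.879).

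Of the pathways that use the carbon units, the purine list had 1 of 12 genes past 1.5-fold higher, 0 lower and a median of 0.12. Pfas was highest at 1.55-fold (1.36 to 1.78) and Gmps lowest at 0.829-fold (0.792 to 0.867). Gart and Impdh2 were at 1.15-fold (1.09 to 1.22) and 1.37-fold (1.33 to 1.42), and Atic at 0.952-fold (0.909 to 0.998). In the thymidylate and deoxynucleotide list 0 of 7 genes were past 1.5-fold in either direction, and the median was -0.17. Dctd was highest at 1.11-fold (0.950 to 1.29) and Dck lowest at 0.672-fold (0.606 to 0.745). Tk1 and Rrm2 were at 0.841-fold (0.796 to 0.888) and 0.805-fold (0.769 to 0.843), beside the 0.878 of Tyms, but in cluster 4 they were at 1.61-fold (1.29 to 2.02) and 1.60-fold (1.29 to 2.01), beside the 1.21 of Tyms.

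In the list of the methionine cycle and glutathione 1 of 9 genes was past 1.5-fold higher, 0 were lower and the median was 0.05. That gene was Cth, which passed the minimum through KO alone, and among the 8 genes with at least 50 UMIs in each library 0 were past 1.5-fold. Cth, which makes cysteine from cystathionine, had 3 UMIs in WT and 77 in KO, a ratio of 23.8 (7.84 to 118). Mat2a, which makes S-adenosylmethionine, was at 1.30-fold (1.26 to 1.35), Ahcy at 1.10-fold (0.981 to 1.22) and Mat2b lowest at 0.811-fold (0.773 to 0.851). Myc, which is known to induce serine and one-carbon genes, stood at 18.3 and 26.5 CPM, or 1.45-fold (1.33 to 1.58), and its partner Max at 1.08-fold (1.02 to 1.14). By state, Myc was at 1.14-fold (0.970 to 1.34) in cluster 1, 0.713-fold (0.591 to 0.862) in cluster 4 and 2.22-fold (1.77 to 2.81) in cluster 5.

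**Figure D4:**
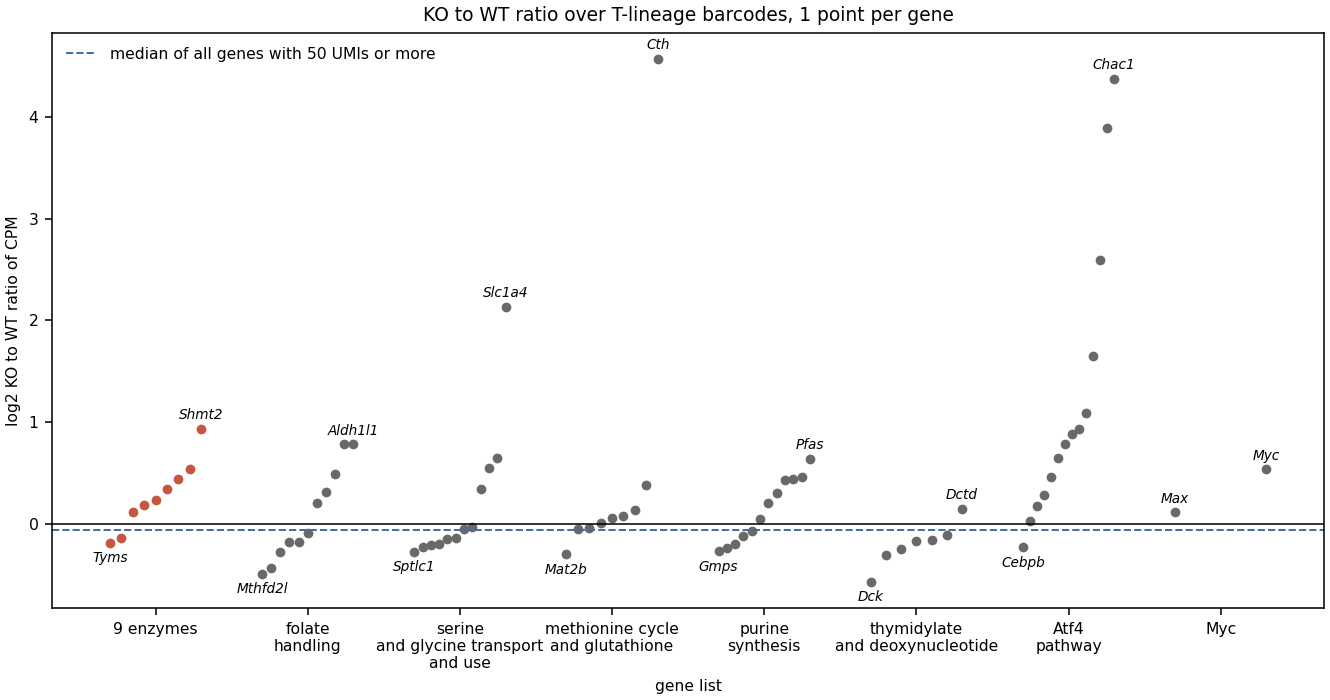
Log2 KO to WT ratio of CPM over T-lineage barcodes (y axis) for the genes of each list with at least 50 UMIs (x axis), 1 point per gene, with the highest and lowest gene of each list named; the solid line marks no difference and the dashed line the median of all genes tested. The 9 enzymes (red) lie between Tyms and Shmt2, and the points of the Atf4 list reach highest together with Cth.

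The pattern of each gene across clusters was compared with that of 9181 genes by Pearson's r of log2 CPM over 24 points, 1 per cluster and library, which share libraries and depth. Phgdh was most like Prdx1 (r = 0.933), Sgf29 (0.930) and Mif (0.929). Psat1 was most like Phgdh (0.922), Prdx4 (0.894) and G3bp1 (0.893), and Psph most like Sdr39u1 (0.961), Tspan13 (0.951) and Psme2 (0.928). Shmt1 was most like Phgdh (0.840), Psat1 (0.830) and Thop1 (0.828), whereas Shmt2 was most like Hmgn1 (0.924), Noc4l (0.920) and Eif2s2 (0.919). Mthfd2 was most like Phgdh (0.822), Shmt2 (0.802) and Dxo (0.798). Mthfd1 was most like Mrpl12 (0.923), Wdr74 (0.917) and Gar1 (0.917), and Mthfd1l most like Cad (0.942), Rnps1 (0.936) and Tardbp (0.934). Tyms was most like Gmnn (0.982), Cenpk (0.971) and Lig1 (0.965), and among the 9 genes its r was lowest with Psph, at 0.322.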

How the data were processed

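Splenic YFP-positive Tregs had been profiled in 1 WT and 1 KO library. The deposited matrices hold unnormalised UMI counts of genes in barcodes, and the authors' alignment and counting used Cell Ranger 5.0.1 with mm10. The deposited barcodes were not yet filtered by mitochondrial share. The 9 genes, the gene lists, the markers and the rules were chosen with earlier results of these data known. All 9 genes were named with their values, and of each list the highest and lowest gene and genes named by role. Of the genes chosen by role, 1 is left out here. Counts over lists were repeated with 50 UMIs required in each library, an alternative chosen after seeing the data.

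The libraries held 64567991 (WT) and 65480052 (KO) UMIs in 14524 and 18134 barcodes. Kept barcodes were merged, scaled to 10000 UMIs, log-transformed and reduced from 2000 variable genes to 30 principal components, and barcodes were clustered with the Leiden algorithm (20 shared nearest neighbours, resolution 0.5) in igraph 0.11.9 and scikit-learn 1.9.0. The variable genes left out 201 genes, among them the 9 enzymes, the lists, cell type markers, haemoglobin and mitochondrial genes. No batch correction was run. T-lineage clusters had at least 50% of the median CD3 and T cell receptor level and 50 barcodes. A name of the form "Treg-like" needed at least 3 raised markers, but not every cluster that met this was named. Doublets were kept in the main values, and removed by Scrublet scores (scanpy 1.11.5) in an alternative. The cycling limit was set by Otsu's method on the log10 share, over barcodes with at least 1000 UMIs.

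UMIs were summed per library and class. Ratios carry exact conditional binomial intervals, ratios of ratios carry Poisson errors on the log scale, CPM Poisson and shares Clopper-Pearson intervals. Log2 ratios of lists had 0.5 UMIs added, and log2 CPM behind correlations had 1 CPM added, over genes with at least 200 UMIs per library. Interval coverage was checked on simulated data. Promoters came from RefSeq, gene positions from GENCODE on GRCm38, matched by symbol or gene ID for all 9 genes.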

Additional observations from a re-analysis of the deposited data

Results flagged for a closer look

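Tyms differed between clusters in the direction of its KO to WT ratio, with 1.21 (1.06 to 1.39) in the activated cluster 4 and 0.563 (0.491 to 0.643) in cluster 6. Both intervals cover counting error only, and with 1 library per genotype the difference was not tested. At Leiden resolution 0.3 the directions were exchanged, with 0.909 and 1.07.

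The barcodes that had been left out by the filters, 6468 in WT and 4364 in KO, were not part of the main comparisons. Some of them enter the alternative with a mitochondrial limit of 10%. In them the KO to WT ratio was 1.56 (1.45 to 1.68) for Phgdh, 1.22 (1.05 to 1.43) for Psat1, 1.21 (1.05 to 1.40) for Psph, 1.96 (1.69 to 2.28) for Shmt2 and 1.51 (1.35 to 1.68) for Mthfd2. For Phgdh the level was 129 CPM in WT and 201 CPM in KO, and for Shmt2 it was 28.1 and 55.1 CPM. Mthfd1l was lower in KO, at 0.799 (0.675 to 0.945). Shmt1 was at 1.27 (0.986 to 1.62) and Mthfd1 at 0.879 (0.707 to 1.09). Tyms stood at 83.6 and 87.4 CPM, a ratio of 1.05 (0.945 to 1.16). These barcodes include cells of all lineages.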

How the results depend on the processing

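The values in question are KO to WT ratios of the 9 enzymes summed, in which Phgdh has the most UMIs. They were 1.23 in T-lineage, 1.30 in non-cycling and 1.19 in cycling barcodes and 1.20, 1.44, 1.24 and 1.17 in clusters 1, 4, 5 and 6, and the cycling to non-cycling ratio was 2.34 in WT and 2.13 in KO. All stayed above 1 under every alternative run. Of the alternative values of these sums 38 stayed within the counting error and 39 did not, and of those of single genes 558 did, 158 moved past it and 9 reversed. Without doublets the cycling ratio was 1.21 and the KO cycling to non-cycling ratio 2.20. Scaling without haemoglobin, mitochondrial and ribosomal protein genes gave 1.28, 1.35 and 1.23 for T-lineage, non-cycling and cycling barcodes, and 2.24 (WT) and 2.04 (KO) for cycling to non-cycling. The mean of single-barcode CPM gave 1.34 for T-lineage, 1.32, 1.16 and 1.08 for clusters 4, 5 and 6, and 1.93 and 1.72 for cycling to non-cycling. Thinning to 1000 UMIs gave 1.38 for T-lineage, 1.16 for cycling, and 2.08 and 1.80. With a mitochondrial limit of 10% the WT cycling to non-cycling ratio was 2.25. Leiden resolution 0.3 gave 1.31, 1.16 and 1.31 for clusters 4, 5 and 6, and resolution 1.0 gave 1.09 and 1.35 for clusters 1 and 5. With the cycling limit halved the non-cycling, cycling, WT and KO values were 1.25, 1.24, 1.88 and 1.87, with it doubled 1.41, 1.15, 2.04 and 1.67, and with cycling called from a UMI of Mki67 or Top2a 1.35, 1.28, 1.90 and 1.80. The following were chosen after seeing the data. Without clusters 2, 7 and 9 the non-cycling and cycling ratios were 1.26 and 1.29 and the KO cycling to non-cycling ratio 2.43, and equal weights of clusters 1, 4, 5 and 6 gave 1.27.

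A reversal was counted where the interval of the reported value left out 1 and the alternative lay on the other side of 1. Single genes reversed as follows, and the cause was not tested. With the mean of single-barcode CPM, Tyms in T-lineage barcodes was at 1.11, Psat1 in cycling barcodes at 1.00 and Psph in cluster 6 at 0.968. With thinning, Mthfd1l was at 1.04 and Tyms at 1.17 in T-lineage barcodes, and Psat1 at 0.917 in cycling barcodes. At resolution 0.3, Tyms was at 0.909 in cluster 4 and 1.07 in cluster 6, and with equal cluster weights Mthfd1 was at 0.988. Of values whose interval included 1, Tyms in non-cycling barcodes went from 1.07 to 0.886 without clusters 2, 7 and 9, and Psat1 in cluster 1 ranged from 0.899 to 1.09. In T-lineage, non-cycling and cycling barcodes and clusters 1, 4, 5 and 6, Shmt2, Mthfd2 and Phgdh stayed above 1 under each alternative run there, from 1.29 to 2.36 for Shmt2, 1.13 to 1.80 for Mthfd2 and 1.21 to 1.62 for Phgdh. Shmt1 and Mthfd1 have few UMIs per cluster, which limits their ratios there. No paired analysis was possible because each genotype has 1 library.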
